A study of Mus musculus with 6 samples.

Results

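The Runx transcription factors, their partner subunit Cbfb and the transcription factor Myb were followed in progenitors of mouse marrow that had been sorted on the green fluorescence of a Hes1 reporter allele. Hes1 is a gene that Notch signalling turns on. Probe sets were taken by symbol alone, wherever the platform annotation gave 1 gene symbol and that symbol was Runx1, Runx2, Runx3, Cbfb or Myb. This gave 12 of 45037 probe sets, for 4 of 18193 genes, with 6 for Runx1, 2 for Runx3, 1 for Cbfb and 3 for Myb. No probe set carried the symbol Runx2 alone, and its level was not analysed here. The platform is a 1-colour Affymetrix array, on which a probe set is a group of short probes against 1 transcript sequence.

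All cells came from male mice aged 6 weeks with the genotype Hes1 GFP/WT, so that 1 Hes1 allele carried green fluorescent protein in both groups. They were lineage-negative, cKit-positive and Sca1-negative marrow cells, the surface phenotype of myeloerythroid progenitors, which holds precursors of red cells, platelets, granulocytes and monocytes. The GFP-positive group and the GFP-negative group had 3 arrays each. Separate animals or pools are not named in the labels, so each p-value covers the spread among these 6 arrays alone, and that spread may be technical. In a sorted mixture, fewer cells of a type and less RNA per cell cannot be told apart.

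Runx proteins bind DNA through the Runt domain and do so well only when paired with Cbfb, which does not itself bind DNA. The pair is called core-binding factor. Runx1 is needed for the first blood stem cells and later for platelet, lymphoid and myeloid development, Runx2 is the regulator of bone formation, and Runx3 acts mainly in T and natural killer cells. Myb is an activator of immature blood cells that keeps progenitors dividing, and its level is known to fall as red cells and granulocytes mature.

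Each Runx gene can be transcribed from a distal or a proximal promoter. An annotated promoter of each of the 3 Runx genes holds a tandem pair of Runx binding motifs, which is shown because the family shares it. In Runx1 and Runx3 this is the outermost promoter. The Runx2 window is set on a start at 44814627, inside the annotated gene, which reaches 44814797, and no other Runx2 window was searched. Any part of the motif pair in the changes below was not tested. The sites are from RefSeq sequence on build GRCm38.p6, read 5′ to 3′ on the strand of the gene, with the Runx motif ACCACA in capitals.
Runx1, chr16:92826025-92826054, minus strand: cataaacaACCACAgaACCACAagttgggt
Runx2, chr17:44814583-44814612, minus strand: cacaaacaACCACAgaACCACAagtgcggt
Runx3, chr4:135120503-135120532, plus strand: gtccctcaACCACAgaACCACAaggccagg
The pair of motifs lies at 29 to 42 bases from the annotated transcript start in Runx1 and at 24 to 37 in Runx2, counted from 1 at the start, and at -134 to -121 in Runx3, before it. The motif TGTGGT, searched on both strands (its reverse complement is ACCACA), occurred in 16.8% of 32851 promoter windows of 300 bases. The tandem form, with NN between the motifs and also searched on both strands, occurred in 0.0213%, which is 7 windows. These belong to Runx1, Runx2, Runx3, Gm15462, Gm16225, Olfr24 and Gm12236. Among the 7 windows of the 5 genes, TGTGGT was held only by the outermost windows of Runx1 and Runx3 and the only Runx2 window. The inner windows of Runx1 and Runx3 and the windows of Cbfb and Myb held none. The Myb motif, searched as CAACNG or TAACNG on both strands, was found 2 times in the outermost Runx1 window and in no other of the 7, against 49.7% of all windows. A match is a run of letters and no evidence of binding.

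Core-binding factor transcripts were lower in GFP-positive cells, and Myb transcripts were not called. Cbfb fell by 0.83 on the log2 scale, Runx1 fell by 0.60 to 1.13 over its 3 called probe sets, and Runx3 fell by 0.54 at 1 of its 2 probe sets. The 3 Myb probe sets changed by -0.13 to -0.07, and with array medians subtracted the change of 1421317_x_at was 0.00, just above 0. Values are log2 of the deposited intensity, and changes are the mean of GFP-positive minus the mean of GFP-negative arrays. A call means a Benjamini-Hochberg adjusted p under 0.05 in limma, fitted and adjusted over all 45037 probe sets. Of the 12 probe sets 5 were called lower and 0 higher, against 7.66% of all probe sets called lower and 6.35% called higher. All 12 lay among the 22519 brighter probe sets, of which 12.8% were called lower and 9.99% higher. The same 5 were those whose groups did not overlap, which held in this direction for 14.2% of all probe sets. Probe sets of 1 gene are not independent of each other, so the 5 calls stand for 3 genes.

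**Figure D1:**
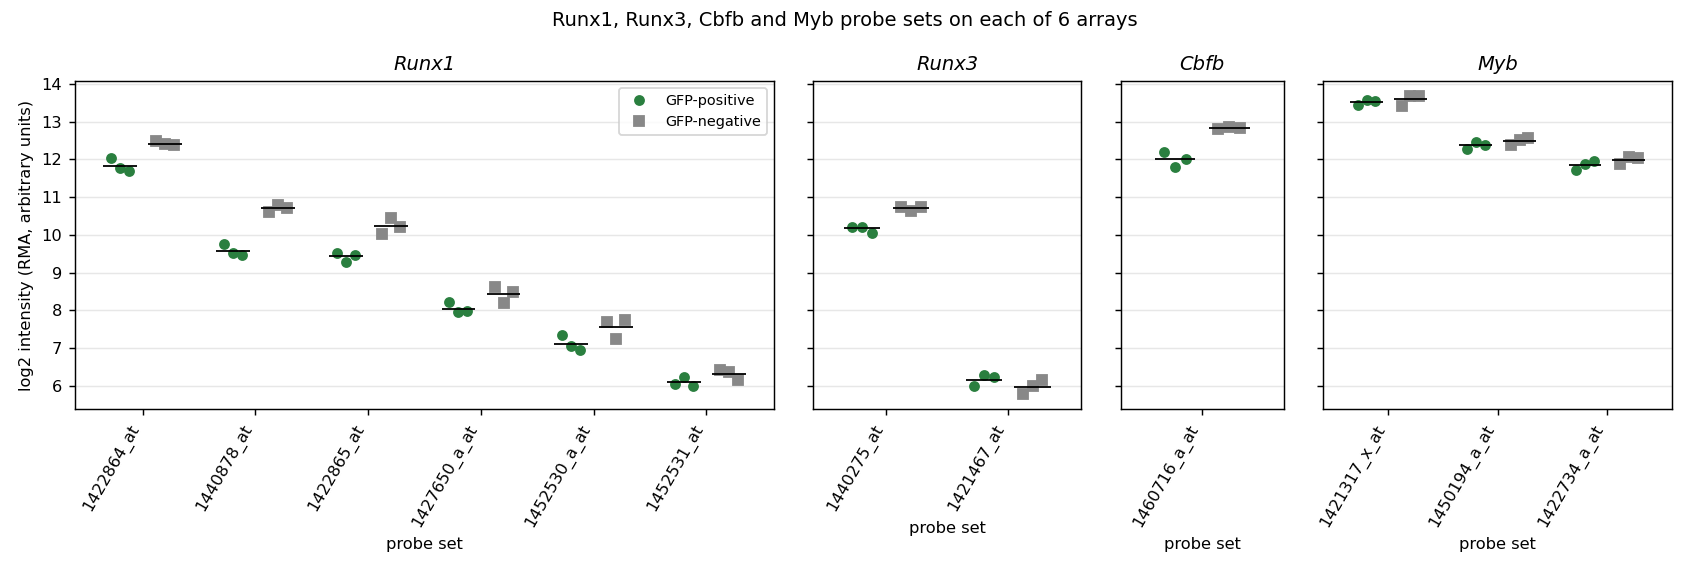
Log2 intensity of the 12 probe sets on each array, with GFP-positive arrays as green circles left of GFP-negative arrays as grey squares, and a black line at each mean of 3 arrays. The groups do not overlap at Cbfb, at the first 3 Runx1 probe sets and at the first Runx3 probe set, and they overlap at all 3 Myb probe sets.

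Cbfb, the shared partner subunit, had the most even GFP-negative values of the 12 probe sets. Its probe set 1460716_a_at read 12.19, 11.80 and 12.01 in GFP-positive arrays 1 to 3, against 12.81, 12.85 and 12.83 in GFP-negative arrays 1 to 3. The highest GFP-positive array lay 0.63 below the lowest GFP-negative one (before rounding), and the GFP-negative arrays were almost equal. The log2 means were 12.00 ± 0.19 in GFP-positive and 12.83 ± 0.02 in GFP-negative cells (SD, n = 3 each), a 1.78-fold lower signal (limma adjusted p = 0.00751, 95% interval of the change -1.12 to -0.54). The call held in all 14 alternative settings, with an adjusted p of 0.00109 to 0.0418. In linear units the mean GFP-positive intensity was 56.5% of the GFP-negative one. Only 7.47% of all probe sets had a lower change.

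Runx1, the core-binding factor gene of early blood cells, was read by 6 probe sets whose changes all lay below 0. The largest change was at 1440878_at, designed on an expressed sequence tag. It read 9.75, 9.52 and 9.46 in GFP-positive arrays, against 10.61, 10.78 and 10.72 in GFP-negative arrays. The groups were separated by 0.86, which is several times the SD of either group, 0.15 and 0.08. The signal was 2.18-fold lower (limma adjusted p = 0.00233, interval -1.40 to -0.85), and the call held in all 14 alternatives.

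The brightest Runx1 probe set, 1422864_at, read 12.03, 11.76 and 11.68 in GFP-positive arrays, against 12.48, 12.41 and 12.39 in GFP-negative arrays. GFP-positive array 1 was the highest of its group, and no value crossed into the other group. The signal was 1.52-fold lower (limma adjusted p = 0.0226, interval -0.89 to -0.31). With 1 array left out the call was kept only without GFP-positive array 1 (adjusted p = 0.0135), and without any 1 of the other 5 arrays it was lost, with adjusted p between 0.0620 and 0.0772. The direction stayed the same throughout.

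A second probe set on the same reference transcript, 1422865_at, read 9.53, 9.29 and 9.47 in GFP-positive arrays, against 10.03, 10.45 and 10.20 in GFP-negative arrays. Again the groups did not overlap, and GFP-negative array 2 was the highest. The signal was 1.74-fold lower (limma adjusted p = 0.0138, interval -1.13 to -0.47). Dropping GFP-negative array 3 gave an adjusted p of 0.0507, and dropping it together with GFP-positive array 1 gave 0.0914. With the replicate number as a block in limma the adjusted p was 0.0587.

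The other 3 Runx1 probe sets were dimmer and were not called. At 1427650_a_at the values were 8.22, 7.95 and 7.99 in GFP-positive arrays, against 8.61, 8.20 and 8.50 in GFP-negative arrays (change -0.38, limma adjusted p = 0.127). At 1452530_a_at they were 7.35, 7.05 and 6.94 in GFP-positive arrays, against 7.69, 7.25 and 7.75 in GFP-negative arrays (change -0.45, limma adjusted p = 0.141). GFP-negative array 2 was the lowest of its group at both and reached into the GFP-positive range. The dimmest, 1452531_at, read 6.06, 6.24 and 5.99 in GFP-positive arrays, against 6.42, 6.36 and 6.16 in GFP-negative arrays (change -0.22, limma adjusted p = 0.259), close to the array medians of 5.90 to 6.02.

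The sizes of the Runx1 changes were compared between probe sets as differences within each array from 1422864_at. Within arrays, the difference between 1440878_at and 1422864_at was 0.52 lower in GFP-positive cells (SD 0.04 in GFP-positive and 0.13 in GFP-negative, groups not overlapping). Those of 1427650_a_at and 1452531_at to 1422864_at were 0.22 and 0.38 higher and did not overlap either, 1452531_at being near the array medians. Those of 1422865_at and 1452530_a_at were -0.20 and 0.15 and overlapped (exact permutation p = 0.2 and 0.5). For the 3 that did not overlap, the 2-sided exact permutation p was 0.1, the smallest that 3 against 3 arrays allow, and 0.2 after adjustment over 8 pairs within genes, so no pair passed. Which Runx1 transcript forms each probe set reads was not tested.

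Runx3, the family member of T and natural killer cells, gave a call at its bright probe set and none at its dim one. The bright set was 1440275_at, designed on an expressed sequence tag. It read 10.22, 10.22 and 10.06 in GFP-positive arrays, against 10.74, 10.64 and 10.73 in GFP-negative arrays. Both groups were tight and lay 0.42 apart. The log2 means were 10.17 ± 0.09 in GFP-positive and 10.70 ± 0.06 in GFP-negative cells (SD, n = 3 each), a 1.45-fold lower signal (limma adjusted p = 0.0148). Leaving out GFP-positive array 3 gave an adjusted p of 0.0505, leaving out GFP-negative array 3 gave 0.0613, and 0.102 followed when GFP-positive array 1 and GFP-negative array 3 were both dropped.

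The dim Runx3 set was 1421467_at, designed on a reference transcript. It read 6.01, 6.28 and 6.24 in GFP-positive arrays, against 5.78, 6.01 and 6.15 in GFP-negative arrays. These values overlapped and lay near the array medians, and the change of 0.20 was not called (limma adjusted p = 0.358, interval -0.13 to 0.52). Within arrays, the difference between the dim and the bright set was 0.73 higher in GFP-positive cells and the groups did not overlap (exact permutation p = 0.1, adjusted 0.2). The gene is therefore lower by 1 of 2 readings.

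**Figure D2:**
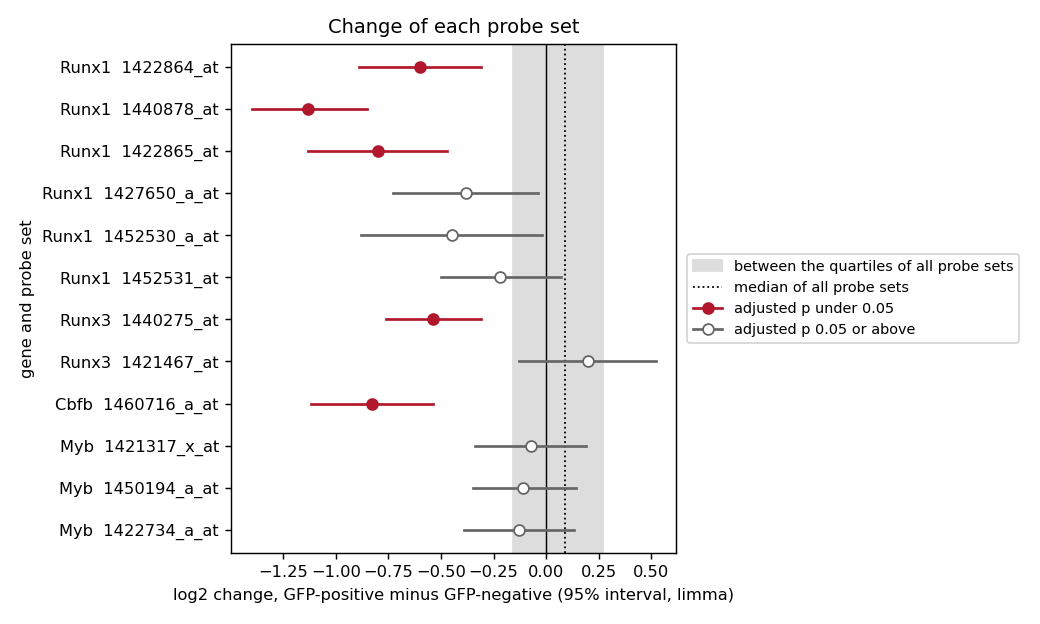
Log2 change, GFP-positive minus GFP-negative, of the 12 probe sets with 95% intervals from limma, filled in red where the adjusted p was under 0.05. The shaded band spans the quartiles of all 45037 probe sets, -0.16 to 0.27, and the dotted line is their median of 0.09. The 5 called probe sets of Runx1, Runx3 and Cbfb lie left of the band and the 3 Myb probe sets lie within it.

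Myb, the progenitor factor, was bright on every array. Its probe set 1421317_x_at, of a type whose probes can also match other genes, read 13.44, 13.57 and 13.54 in GFP-positive arrays, against 13.41, 13.67 and 13.68 in GFP-negative arrays. The lowest and the highest of the 6 values were both GFP-negative. The log2 means were 13.51 ± 0.07 in GFP-positive and 13.59 ± 0.15 in GFP-negative cells (SD, n = 3 each), with limma adjusted p = 0.684.

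At 1450194_a_at the values were 12.27, 12.45 and 12.39 in GFP-positive arrays, against 12.37, 12.51 and 12.56 in GFP-negative arrays (change -0.11, limma adjusted p = 0.498). At 1422734_a_at they were 11.73, 11.88 and 11.97 in GFP-positive arrays, against 11.87, 12.07 and 12.03 in GFP-negative arrays (change -0.13, limma adjusted p = 0.454). The groups overlapped at both, and array 1 of each group was the lowest of its group at all 3 Myb probe sets. The 95% intervals of the 3 changes together ran from -0.39 to 0.19, so that a Myb change of the size seen at Cbfb lies outside them, while a small fall or rise lies inside. None of the 14 alternatives called any of the 3.

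The changes of the 4 genes were set against each other at the brightest probe set of each, as within-array differences over 6 pairs, a comparison added after the values were seen. The change of Cbfb was 0.76 below that of Myb, that of Runx1 0.53 below and that of Runx3 0.46 below. The change of Runx1 was 0.23 above that of Cbfb, and that of Runx3 0.30 above. For these 5 pairs the groups did not overlap, with an exact permutation p of 0.1, the smallest possible, and 0.12 adjusted over the 6 pairs. Runx1 and Runx3 differed in change by -0.06 and overlapped (exact p = 0.6). Over the 6 arrays the brightest probe sets of Runx1, Runx3 and Cbfb correlated at r = 0.93 to 0.96 with each other and at 0.15 to 0.28 with Myb, as a description that reflects the shared difference between groups.

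The genes whose pattern over the 6 arrays was most like that of each member were taken from 9096 other genes of at least median signal. For Cbfb they were Padi2, an enzyme that converts arginine to citrulline, Vav1, a signalling protein of blood cells, and the actin-binding peptide gene Tmsb10, each at r = 0.999. For Runx1 they were the prostaglandin E2 receptor gene Ptger2 at 0.999, BC029722 at 0.998 and Frmd8 at 0.997. For Runx3 they were the phosphatase gene Ctdsp2 at 0.999, the autophagy gene Gabarapl1 at 0.998 and the immunity-related GTPase gene Irgm2 at 0.997. Such values were common, since 855, 499 and 515 genes exceeded r = 0.95 with Cbfb, Runx1 and Runx3, and 13 genes did so with Myb. Those closest to Myb were the phosphatase gene Dusp1 at 0.993, Vapa at 0.984 and Tob2, of the antiproliferative Tob family, at 0.972.

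Among cofactors of core-binding factor, 17 of 20 listed genes were measured. Of these, 0 were higher and 1 lower, with a median change of -0.04, against a median of 0.11 over all 18193 genes, of which 8.15% were called higher and 9.92% lower (1 probe set a gene, the one of highest mean). The one that fell was Kmt2a, a histone methyltransferase, by 0.53 (limma adjusted p = 0.0180). It lost its call without GFP-positive array 2, GFP-positive array 3 or GFP-negative array 3 (adjusted p = 0.0628, 0.0558 and 0.0711). The acetyltransferase Crebbp changed by -0.09 and the arginine methyltransferase Prmt1 by 0.01, neither called (adjusted p = 0.551 and 0.947). The corepressor Cbfa2t3, which joins erythroid complexes, changed by -0.16 (adjusted p = 0.280).

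The transcription factors that bind beside Runx1 moved in both directions. Of 12 measured, 3 rose and 7 fell, with a median of -0.50. Over all genes 8.15% were called higher and 9.92% lower, with a median of 0.11. The erythroid factor Gata1 had log2 means of 12.47 ± 0.14 in GFP-positive and 11.65 ± 0.08 in GFP-negative cells (SD, n = 3 each; limma adjusted p = 0.00555). Tal1, its partner, rose by 0.65 and the bridging protein Ldb1 by 0.46. The myeloid factor Spi1 averaged 7.27 ± 0.15 in GFP-positive and 9.16 ± 0.17 in GFP-negative cells, a 3.71-fold lower signal (adjusted p = 0.00113). Erg, an ETS factor of stem cells, was 3.29-fold lower and Cebpa, the granulocyte factor, 2.96-fold lower (adjusted p = 0.00108 and 0.00137). Smaller falls were seen for Fli1 by 0.73, Nfe2 by 0.52, Lyl1 by 0.50 and Gata2 by 0.49. The calls of these smaller changes depended on single arrays. Gata2 and Lyl1 passed with GFP-positive array 1 dropped and with no other single array dropped (adjusted p up to 0.118 and 0.106), and Ldb1 passed only with GFP-negative array 1 dropped (up to 0.133). Fli1 did not pass with GFP-positive array 2, GFP-negative array 2 or GFP-negative array 3 dropped (0.0573 to 0.0728), nor Nfe2 with GFP-negative array 2 dropped (0.0503). With GFP-negative array 2 dropped 3 fell, and with either GFP-positive array 2 or GFP-negative array 3 dropped 4 fell. Lmo2, which joins Tal1 and Ldb1, changed by 0.02 (adjusted p = 0.879).

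Known target genes of Runx proteins were also called in both directions. The list does not mark whether Runx proteins activate or repress each gene, and their part in these changes was not tested. Of 19 measured on a list of 20, 2 rose and 7 fell, and the median was -0.06. Of the 10 that were not called, 5 lay below the array median on all arrays. Over all genes 8.15% were called higher, a share near that of the 2 rises, and 9.92% lower, with a median of 0.11. The largest fall was that of Csf1r, the macrophage growth factor receptor, at 8.85 ± 0.74 in GFP-positive and 11.59 ± 0.19 in GFP-negative cells (adjusted p = 0.00530, and 0.0624 without both GFP-positive array 1 and GFP-negative array 3). The cell cycle inhibitor Cdkn1a was 3.20-fold lower (adjusted p = 0.0158). That call was lost when GFP-negative array 2 (0.0588) or GFP-negative array 3 (0.0528) was dropped. The granule gene Elane was 1.94-fold lower (adjusted p = 0.00740). Mpo, myeloperoxidase, was 1.44-fold lower (adjusted p = 0.0132), and the call of Mpo was lost without GFP-negative array 2 or 3 (0.0537 and 0.0507). The count of falls was 4 without GFP-negative array 2. The 2 that rose were the cytotoxic protease gene Gzmb and Zbtb7b, a T cell lineage factor (adjusted p = 0.000936 and 0.0124). Gzmb averaged 9.42 ± 0.19 in GFP-positive and 5.42 ± 0.31 in GFP-negative cells, and its GFP-negative values lay below the array medians, so no fold is given. Zbtb7b rose by 0.67 on the log2 scale, from GFP-negative values of 5.75 to 6.05 that lay close to the array medians. Spi1, Cebpa and Nfe2 are on both lists.

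**Figure D3:**
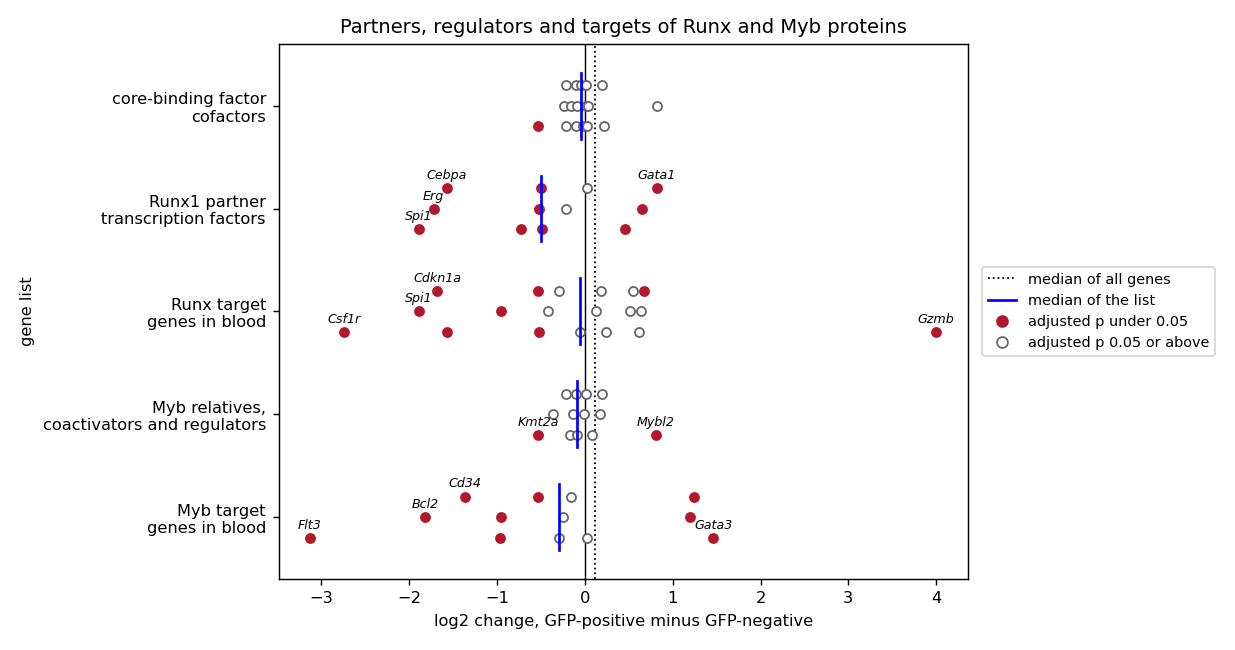
Log2 change, GFP-positive minus GFP-negative, of each measured gene of 5 lists of Runx and Myb partners, regulators and targets, with calls filled in red, a blue bar at the median of each list and a dotted line at the median of all genes, 0.11. The partner factors have 7 calls below 0 and 3 above, whereas the 2 lists of cofactors and regulators have most genes near 0.

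Of 13 measured Myb relatives, coactivators and regulators, 1 was higher and 1 lower, close to the 8.15% and 9.92% of all genes, with a median of -0.09 against 0.11 over all genes. Mybl2, the relative that acts in dividing cells, averaged 8.89 ± 0.23 in GFP-positive and 8.08 ± 0.17 in GFP-negative cells (SD, n = 3 each; limma adjusted p = 0.0185). The call did not survive dropping array 2 or array 3 of either group (adjusted p from 0.0570 to 0.0688). Mybl1, the germ cell relative, lay below the array median on all arrays. The gene that fell was again Kmt2a.

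Target genes of Myb changed in both directions, and Myb itself was not called. The part of Myb in these changes was not tested. Of 13 measured on a list of 14, 3 rose and 6 fell, with a median of -0.30. Over all genes 8.15% were called higher and 9.92% lower, with a median of 0.11. Flt3, the receptor of multipotent progenitors, averaged 7.79 ± 0.55 in GFP-positive and 10.92 ± 0.09 in GFP-negative cells, an 8.73-fold lower signal (adjusted p = 0.00154). The survival gene Bcl2 was 3.54-fold and the progenitor antigen gene Cd34 2.58-fold lower (adjusted p = 0.00198 and 0.00251). Gata3 rose by 1.46, the erythroid factor Klf1 by 1.24 and the cyclin gene Ccne1 by 1.20 (adjusted p = 0.00358, 0.00166 and 0.00592). The GFP-negative values of Gata3, 5.79 to 6.29, lay near the array medians. Kit changed by -0.25 and Myc by -0.16, neither called (adjusted p = 0.138 and 0.495). Rag2, a recombinase gene of lymphocytes, fell by 0.97 (adjusted p = 0.0424) and kept that call only with GFP-negative array 2 dropped, of the 6 single arrays (up to 0.118). With all arrays it was also lost with a pseudocount of 16 (0.0544) and with array quality weights (0.0573), and its GFP-positive values of 4.93 to 5.14 lay below the array medians. Mpo and Elane are on this list too.

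Markers of the sorted progenitors and of further cell types were counted too, against 8.15% of all genes called higher and 9.92% called lower. Some of these types, such as megakaryocytes, have precursors within the gate. Hes1 read 7.20, 7.12 and 7.13 in GFP-positive arrays, against 5.74, 6.01 and 5.90 in GFP-negative arrays, in the direction of the sort. Kit, the surface receptor of the gate, averaged 11.17 ± 0.06 in GFP-positive and 11.42 ± 0.11 in GFP-negative cells (SD, n = 3 each), and Ly6a, the gene of Sca1, was not analysed here. For mast cells and basophils, 3 of 6 markers fell (Mcpt8, Cpa3 and Ms4a2) and 1 rose (Cma1), with Fcer1a below the array median on all arrays, and their summed intensity was 1314 to 1687 in GFP-positive and 4470 to 5164 in GFP-negative arrays. For T and natural killer cells, which use Runx3, 1 of 11 markers fell (Nkg7) and 1 rose (Gzma), and the median change was 0.58. Their summed intensity was 3032 to 4404 in GFP-positive and 7410 to 7894 in GFP-negative arrays. Most of it was Nkg7, without which the other 10 summed to 523.1 to 646.4 in GFP-positive and 377.9 to 402.9 in GFP-negative arrays. Of these, Cd3d, Cd3g, Cd2, Ncr1 and Il2rb lay below the array median on all arrays. The GFP-negative values of Gzma (3.69 to 4.89) and of Cma1 (4.38 to 4.98) lay below the array medians. For B and plasma cells, 2 of 8 fell (Ighm and Cd79b), the sums were 1059 to 1728 in GFP-positive and 2773 to 3760 in GFP-negative arrays, and Pax5 lay below the median on all arrays. Jchain read 8.65 in GFP-positive array 1 and 8.85 in GFP-negative array 3, against 3.64 to 4.08 in the other 4. For megakaryocytes, which use Runx1, 2 of 7 rose (Gp5 and Vwf), with sums of 6085 to 7466 in GFP-positive and 4145 to 5345 in GFP-negative arrays. For plasmacytoid dendritic cells 1 of 7 rose (Klk1, sums 5681 to 6676 in GFP-positive and 7324 to 7416 in GFP-negative arrays), and for bone, stroma and endothelium 1 of 9 rose (Ibsp) and 1 fell (Pecam1, sums 437.7 to 610.5 in GFP-positive and 524.0 to 609.2 in GFP-negative arrays, with Sp7, Alpl, Ibsp, Lepr and Cdh5 below the median on all). The largest part of the megakaryocyte sum was Pf4 and that of the plasmacytoid sum was Tcf4, neither called (limma adjusted p = 0.0586 and 0.099). In GFP-negative arrays Pecam1 alone gave 316.0 to 368.8 of the bone, stroma and endothelium sum. In GFP-positive array 2 Col1a1 gave 307.7 of it, against 27.45 to 70.31 on the other arrays. Cxcl12 gave 114.0 in GFP-positive array 1, against 19.18 to 57.53 on the others. The part of these cell types in the Runx1, Runx3 and Cbfb results was not tested.

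**Figure D4:**
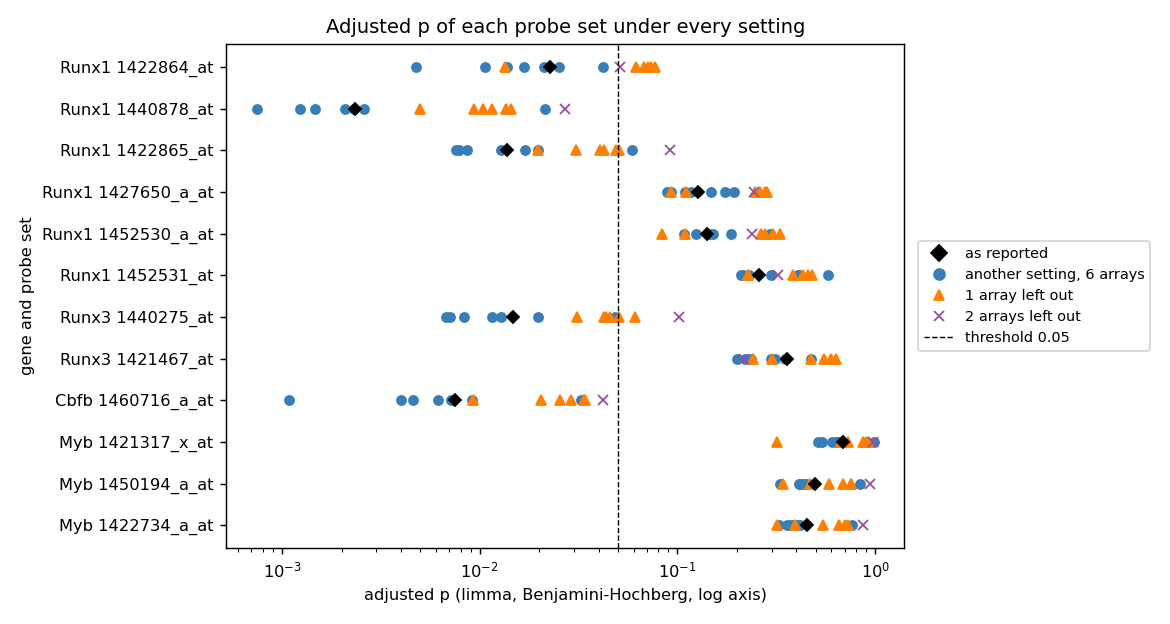
Adjusted p (limma, log axis) of the 12 probe sets as reported (black diamonds) and under 14 alternatives, with 6 arrays kept (blue circles), 1 left out (orange triangles) or 2 left out (purple crosses), and the threshold of 0.05 dashed. Runx1 1440878_at and Cbfb stay left of the threshold throughout, 3 probe sets cross it, and the other 7 stay right of it.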

How the data were processed

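Amplification used 5 ng of total RNA a sample (NuGEN Ovation) before biotin labelling, per the labels' protocols. The authors deposited linear intensity per probe set, computed by RMA according to the submitters' processing notes. For RMA, no version or settings, nor the step back to a linear scale, were found in the labels. Here log2 was taken with no pseudocount or renormalization, and 64 of 45101 probe sets, the array controls, were dropped. Array median intensities were 59.9 to 64.8, and arrays correlated at r = 0.989 to 0.993 within and 0.973 to 0.979 between groups. There were no detection calls, and precision is limited by having 3 arrays a group.

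The main test was limma 3.58.1 under R 4.3.3 (lmFit and eBayes, 2-sided, group as the only term), with p adjusted by Benjamini-Hochberg across the whole table. The procedure was also run on simulated data drawn independently for each probe set, and no result here rests on that run. Differences in change were tested by exact permutation over arrays. Symbols are those of the platform annotation held by GEO, and 74 of 80 pathway list entries were matched. Named genes were all members, up to 4 called genes of the largest change per list (or the 2 brightest where fewer than 2 were called), and the 3 genes most like each member. Cbfa2t3, Tal1, Ldb1, Fli1, Nfe2, Lyl1, Gata2, Lmo2, Elane, Mpo, Zbtb7b, Klf1, Ccne1, Rag2, Kit, Myc, Mybl1 and the markers were named after their values were seen. The members, lists and tests were chosen with earlier results of these data known.

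Arrays with the same replicate number deviated together only weakly (r = 0.02 to 0.05 for equal numbers, -0.04 to 0.02 for unequal), and no pair exceeded r = 0.1. These values cannot exclude pairing, since they were taken over all probe sets, dim ones included. The labels do not say that the numbers pair, so the arrays were treated as unpaired, with a replicate block as an alternative.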

Additional observations from a re-analysis of the deposited data

How the results depend on the processing

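Alternatives were the replicate block, an intensity trend with robust priors, repeated quantile normalization, array medians subtracted, the brighter 22519 probe sets, a pseudocount of 16, array quality weights, leaving out each array, leaving out both GFP-positive array 1 and GFP-negative array 3, and, for lists, the probe set of highest variance. Of 168 comparisons of a member probe set with its reported result, 154 kept direction and side of the threshold. With the replicate block the adjusted p of Runx1 1422865_at was 0.0587, the 1 rise among Myb relatives became 0, partner factors had 2 rises and 6 falls (Ldb1 and Gata2 at 0.0691 and 0.0681), and Runx targets had 3 rises. No other member probe set changed its call under the block. Without both arrays the adjusted p was 0.0515 for Runx1 1422864_at, 0.0914 for Runx1 1422865_at and 0.102 for Runx3 1440275_at, leaving 2 member probe sets called lower. Myb 1421317_x_at turned to a change of 0.00, just above 0, with array medians subtracted (adjusted p = 0.982) and of 0.01 without both arrays (adjusted p = 0.970). With 1 array left out, the adjusted p ran from 0.0135 to 0.0772 for 1422864_at, 0.0196 to 0.0507 for 1422865_at and 0.0312 to 0.0613 for 1440275_at and 0.319 to 0.925 for 1421317_x_at. Member probe sets called lower then numbered 2 to 5, the low counts being 2 when GFP-negative array 3 and 3 when GFP-positive array 3 was dropped.

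Over all probe sets, 2860 were higher and 3452 lower. Subtracting array medians gave 5218 higher, moved the median change of all genes to 0.19, against 0.11 as reported, and the share of calls that were higher to 61.5%, against 45.3%. Without both arrays 681 were higher and 1652 lower, and with 1 array left out 1212 to 2243 were higher and 2192 to 3098 lower. Cofactors called lower numbered 2 with the trend and with the pseudocount, 0 without both arrays and 0 to 1 with 1 array left out. Myb relatives called lower numbered 2 with the trend, the brighter probe sets and the pseudocount, and 0 to 1 with 1 array left out. Their rises also numbered 0 to 1, and both counts were 0 without both arrays. Partner factors had 3 to 7 falls with 1 array left out, and 1 rise and 3 falls without both. Runx targets had 4 rises with medians subtracted, 4 to 8 falls with 1 array left out, and 1 rise and 4 falls without both. Where a setting leaves out arrays, fewer samples enter the fit. The cause of the other differences was not tested.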
